A study of Mus musculus with 14 samples.

Results

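The 10 genes described here encode chaperones and proteases of the mitochondrial matrix and inner membrane: Hspd1, Hspe1, Hspa9, Dnaja3, Lonp1, Clpp, Clpx, Yme1l1, Afg3l2 and Oma1. They were taken by name, as genes known for these functions, from a table of 35275 genes, with earlier results of these data known. All 10 were among the 13079 genes tested. Messenger RNA was measured by sequencing of total RNA in 14 samples of brown adipose tissue from C57BL/6 mice, 8 weeks old. Each sample has its own identifier and is called an animal below, although the labels do not state that each came from a separate mouse. At a housing temperature of 22 °C there were 4 knockout animals (LrpprcFF Ucp1-Cre) and 4 controls (LrpprcFF), and at 30 °C, which the labels call thermoneutrality, there were 3 knockouts and 3 controls. All 14 animals carried floxed Lrpprc, and the controls lacked the Cre transgene. The Ucp1 promoter drives Cre in brown adipocytes, so other cells of the fat pad keep Lrpprc. Brown adipocytes are the labelled cell type, but the RNA came from homogenized tissue and no isolation step is stated.

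Lrpprc encodes a protein that stabilises the messenger RNAs made from mitochondrial DNA. Hspa9 (mortalin) pulls imported proteins into the matrix and folds them with its J-domain partner Dnaja3, and Hspd1 with its lid Hspe1 forms the folding chamber. Lonp1 and the pair of Clpx, an unfoldase, and Clpp, its peptidase, degrade matrix proteins, whereas Yme1l1, Afg3l2 and Oma1 cut proteins of the inner membrane. The mitochondrial unfolded protein response is a transcriptional programme, described in mammals through the transcription factors ATF4, ATF5 and CHOP (gene Ddit3), that is known for raising such genes when matrix or respiratory chain proteins are out of balance.

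The values are FPKM (fragments per length of transcript and per depth of the library), divided in each library by a factor that equalises the median ratio of nuclear genes to their typical level and called scaled FPKM below. A gene was called when its Benjamini-Hochberg adjusted p in limma was below 0.05 over the 13079 genes, and changes are differences in log2(scaled FPKM + 1). Lrpprc itself was at 30.8% of the control mean (FPKM as deposited) in knockouts at 22 °C and at 27% at 30 °C. Estimated depth was 15910000 to 21310000 fragments per library. The members were covered by roughly 198 (Oma1) to 73572 (Hspa9) fragments per library, as estimated from FPKM, that depth and annotated gene lengths. Summed brown adipocyte markers (11 genes, scaled FPKM) lay between 17500 and 23300 in controls and between 13950 and 18240 in knockouts at 22 °C, and between 12720 and 15720 against 6963 to 8986 at 30 °C. Summed macrophage markers (12 genes) were 69.1 to 104 and 115 to 245 at 22 °C, and 149 to 490 and 758 to 2318 at 30 °C. Of the 4 controls at 22 °C, those numbered 3 and 4 have identifiers beginning with R where all other animals have E, and their skeletal muscle marker sums (12 genes) were 7667 and 4546 against 502 and 658 in the other controls. No marker gene was at 0 in all libraries of a group. In these bulk samples, fewer cells of a type and less RNA per cell cannot be told apart.

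Promoter sequences from RefSeq (GRCm38.p6, the base before the start numbered -1 and the start 1) were found for 8 of the 10 genes, and 3 stretches are shown because the results below turn on Lonp1, on its contrast with Clpp, and on the neighbouring pair Hspd1 and Hspe1. The first 2 are bases before the start on the gene's strand, the Lonp1 stretch ending on the start itself, at chr17:56626903-56627153 (minus strand, GC content 60.2%) and chr17:56990014-56990263 (plus strand, 56.4%), and the third is a 30-base stretch at chr1:55088053-55088082 (plus strand).
Lonp1: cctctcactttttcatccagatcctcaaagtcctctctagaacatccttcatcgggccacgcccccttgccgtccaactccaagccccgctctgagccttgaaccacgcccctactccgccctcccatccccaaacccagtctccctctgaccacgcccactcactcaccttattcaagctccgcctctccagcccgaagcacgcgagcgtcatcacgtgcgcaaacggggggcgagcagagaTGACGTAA
Clpp: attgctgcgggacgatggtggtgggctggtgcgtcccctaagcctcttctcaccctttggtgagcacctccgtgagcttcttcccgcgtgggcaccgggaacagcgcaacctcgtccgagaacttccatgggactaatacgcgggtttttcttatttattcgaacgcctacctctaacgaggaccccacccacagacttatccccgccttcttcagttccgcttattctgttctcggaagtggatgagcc
Hspe1: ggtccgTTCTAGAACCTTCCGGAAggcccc

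Capitals in the Lonp1 sequence mark a match to TGACGTNA, a pattern related to the cyclic AMP response element, which lies at -7 to 1 and was searched only after the sequence had been seen. On both strands that pattern was found in 2.93% of 32851 RefSeq mouse promoters of the same length, and among the 8 genes in Lonp1 alone. The pattern TGATGNAA, part of the composite element bound by ATF4 or CHOP with a C/EBP protein, was in 3.97% of those promoters and in 0 of the 8 genes. Capitals in the Hspe1 stretch mark alternating TTC and GAA units of the kind bound by heat shock factors. The core GAANNTTC, which reads the same on both strands and was in 7.86% of promoters, occurred among the 8 genes only in this stretch, at -84 to -77 of Hspe1. The full run of 4 alternating units, counted from TTC on, was not among the patterns planned beforehand. It was in 5 promoters (0.0152%), which include the overlapping promoters of Hspe1 and Hspd1 that hold this stretch. Hspe1 starts at position 55088148 and Hspd1, on the other strand, has annotated starts at 55087932 and 55088243, so that the stretch stands between the Hspe1 start and the first of these, 216 bases apart, with the core at -139 to -132 of that Hspd1 start. Matches and their absence describe letters in these windows and were not tested for function.

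FPKM is per length of transcript, which allows only a rough comparison of levels between these genes. The lengths used are not given in the sources, and GC content ran from 38% (Yme1l1) to 57.8% (Clpp). In controls at 22 °C, Hspa9 had the highest mean at 432 ± 112 scaled FPKM (SD, n = 4), followed by Hspe1 at 280 ± 56.2 and Hspd1 at 279 ± 88.5, and all 3 ranges overlapped. A middle group of Dnaja3 (116 ± 36.4), Afg3l2 (110 ± 21.2), Lonp1 (100.5 ± 18.6) and Clpp (98.2 ± 7.95) could not be ordered beyond its spread. Clpx followed at 48.7 ± 11.6, then Yme1l1 at 20.8 ± 3.17 and Oma1 at 6.44 ± 0.828, with no overlap between neighbours from Clpp downward. In knockouts at 22 °C Lonp1, at 259 ± 93.1, stood above Dnaja3, Afg3l2 and Clpp in each of the 4 libraries, and its range overlapped those of Hspd1 (306 ± 35.6) and Hspe1 (203 ± 18.7). At 30 °C the control means ran from 235 ± 17 (SD, n = 3) for Hspa9 to 6.83 ± 0.508 for Oma1 and the knockout means from 329 ± 91.3 to 6.94 ± 0.694, with Lonp1 at 107 ± 5.71 and 226 ± 90.8.

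**Figure D1:**
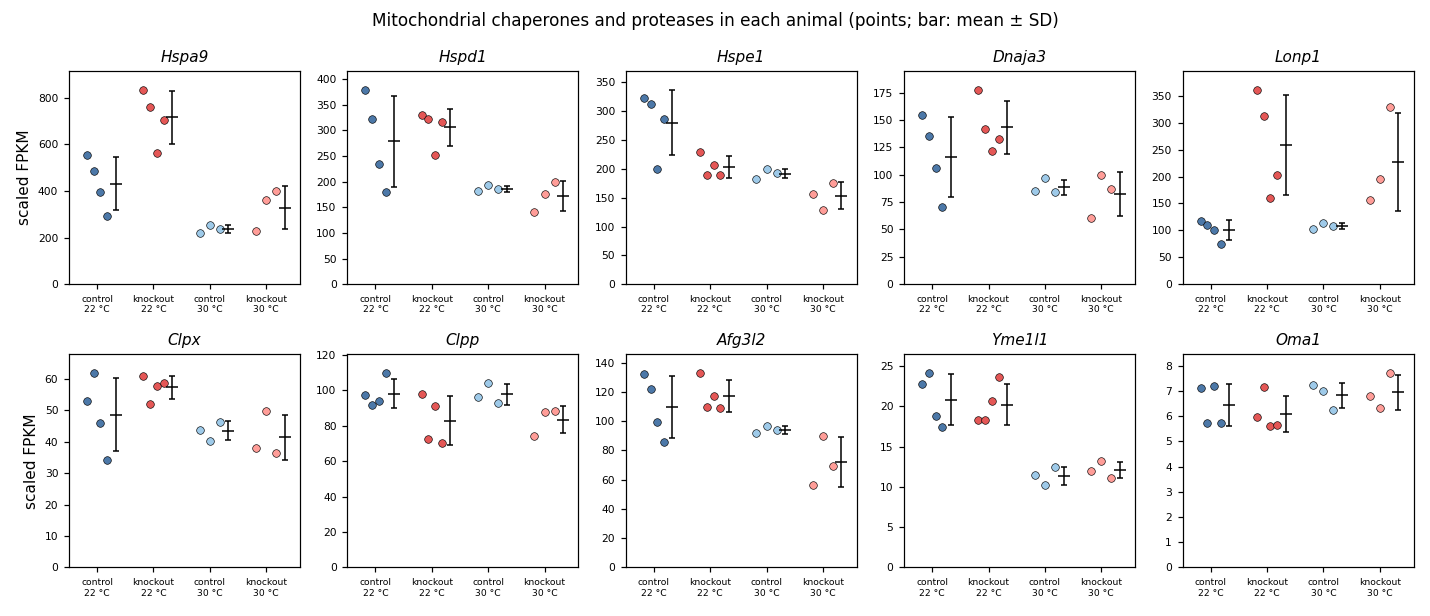
Scaled FPKM (vertical axes, each starting at 0) of the 10 genes in each of the 14 animals, grouped by genotype and temperature; points are animals, the horizontal bar is the mean and the whisker 1 SD. Lonp1 is higher in all 7 knockouts (156 to 360) than in all 7 controls (74.2 to 117), whereas Oma1 stays between 5.62 and 7.7 throughout.

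The knockout was compared with its control at 22 °C first. Of the 10 genes, 1 rose and 0 fell: Lonp1, the ATP-dependent protease of the matrix. Over all genes tested, 0.91% were called higher, 1.06% lower and 1.97% in either direction. The median log2 change of the 10 was 0.14, against 0.002 over all genes.

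Lonp1 (ENSMUSG00000041168) was at 117, 109, 102 and 74.2 scaled FPKM in the 4 controls and at 360, 313, 161 and 202 in the 4 knockouts. Every knockout was above every control, and knockouts 3 and 4 stood well under knockouts 1 and 2. The increase was 2.47-fold, a log2 change of 1.30 ± 0.26 (SE), with an adjusted p of 0.0257 in limma. Without the 2 controls that have R identifiers the log2 change was 1.11 and the adjusted p 0.1, and the call was also lost without control 1, 2 or 4 or knockout 1 or 2 (0.0502 to 0.0912), without the filter on low values (0.0629) and with only these 2 groups in the fit (0.0621). The R controls also had the highest skeletal muscle marker sums of the 8 animals at 22 °C, and the part of muscle RNA in these differences was not tested.

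Hspa9 (ENSMUSG00000024359), the matrix Hsp70, was at 554, 484, 397 and 294 in controls and at 833, 762, 564 and 706 in knockouts. The groups did not overlap, as for 4.85% of all genes in the higher direction, although knockout 3 and control 1 were nearly level. The log2 change of 0.75 ± 0.21 had an adjusted p of 0.0882 in limma and was not called. It was called with FPKM used as deposited (1.06, adjusted p 0.0064), where the median of all genes itself moved to 0.24, and with quantile or equal-total scaling (adjusted p 0.0489 and 0.0432), and without the R controls it was 0.45 (adjusted p 0.273).

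Dnaja3, which stimulates the ATPase of Hspa9, was at 154, 135, 106 and 70.6 in controls and at 177, 142, 122 and 132 in knockouts. Its log2 change was 0.34, with a 95% interval from -0.13 to 0.81 and overlapping groups. Hspd1, the Hsp60 subunit of the folding chamber, was at 379, 322, 236 and 180 in controls and at 330, 323, 253 and 317 in knockouts. These ranges overlapped, the log2 change was 0.18, and its interval ran from -0.24 to 0.60.

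Hspe1, the Hsp10 lid of that chamber, stood on the other side of 0. It was at 323, 313, 199 and 286 in controls and at 228, 189, 207 and 189 in knockouts. Only control 3, at 199, fell within the knockout range. The log2 change was -0.44 ± 0.15 with an adjusted p of 0.153, and it was called lower without the R controls (-0.65, adjusted p 0.0285), without control 3 alone (-0.595, adjusted p 0.0255) or with sample weights (-0.59, adjusted p 0.0104). These were 2 of 12 other settings and 1 of 14 fits with 1 animal left out. Across all of them the change ran from -0.65 to -0.14 (adjusted p in limma up to 0.497). In FPKM as deposited the means were 244 in controls and 220 in knockouts.

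Of the matrix proteases, Clpp and Clpx were not called at 22 °C. Clpp was at 97.6, 91.7, 94 and 110 in controls and at 98.2, 72.5, 91 and 70.1 in knockouts, a log2 change of -0.25 (interval -0.505 to 0). Clpx was at 52.8, 61.8, 45.9 and 34.3 in controls and at 61, 52, 57.6 and 58.6 in knockouts, a log2 change of 0.26 (interval -0.07 to 0.59). For each of these genes the groups overlapped.

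At the inner membrane no change was called at 22 °C. Yme1l1, whose active side faces the intermembrane space, gave a log2 change of -0.03 (interval -0.29 to 0.22), and Oma1, a stress-activated metalloprotease that cuts OPA1 and DELE1, gave -0.07 (-0.295 to 0.163). Afg3l2, a subunit of the m-AAA protease facing the matrix, gave 0.11 (-0.22 to 0.44). These intervals leave room for changes of those sizes and do not show equal levels.

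**Figure D2:**
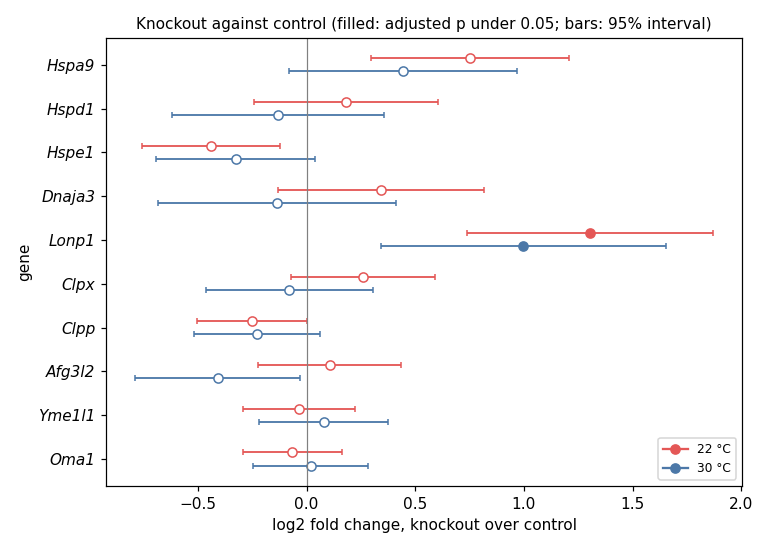
Log2 fold change of each gene, knockout over control (horizontal axis), at 22 °C and at 30 °C; points are limma estimates from 4 against 4 and 3 against 3 animals, bars are 95% intervals and filled points have an adjusted p under 0.05. Only Lonp1 is filled, at 1.30 and 0.996, and Hspe1 and Clpp lie below 0 at both temperatures without being called.

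At 30 °C the same gene was the single one called: Lonp1 rose and 0 of the 10 fell, where 8.82% of all genes tested were called higher, 5.28% lower and 14.1% in either direction. The median log2 change of the 10 was -0.11, against 0.07 over all genes. Lonp1 was at 102, 113 and 107 scaled FPKM in controls and at 156, 195 and 329 in knockouts. Every knockout was again above every control, as for 22.2% of all genes, while the knockouts differed among themselves far more than the controls. The increase was 1.99-fold, a log2 change of 0.996 ± 0.30 with an adjusted p of 0.045 in limma. With 1 animal removed at a time it was called in 4 of 14 fits, those without knockout 1 at 30 °C or, at 22 °C, without control 4 or knockout 1 or 3, and without knockout 3 at 30 °C the log2 change was 0.695 (adjusted p 0.188). The call was also lost with GC content removed in each library (0.89, adjusted p 0.0753), without the filter (adjusted p 0.0806) and with only these 2 groups in the fit (0.0627).

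Among the chaperones at 30 °C, Hspa9 was at 218, 252 and 235 in controls and at 226, 362 and 400 in knockouts. Knockout 1 lay within the control range and the other knockouts above it. The log2 change was 0.44 ± 0.24 with an adjusted p of 0.256, and it was called only with FPKM as deposited (0.74, adjusted p 0.0304), where the median over all genes was 0.31. Hspd1 and Dnaja3 gave log2 changes of -0.13 and -0.14, with 95% intervals from -0.62 to 0.35 and from -0.68 to 0.41. Hspe1 was at 183, 199 and 192 in controls and at 156, 129 and 176 in knockouts, lower in all 3 knockouts than in all 3 controls. Its log2 change of -0.33 ± 0.17 was not called (adjusted p 0.233), and ran from -0.42 to -0.03 across the other settings and animals left out.

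Clpp and Afg3l2 were the other genes whose knockout values all lay under the control values at 30 °C. Clpp was at 96.5, 104 and 92.7 in controls and at 74.5, 88 and 88.2 in knockouts, a log2 change of -0.23 ± 0.14 (adjusted p 0.299). Afg3l2 was at 91.8, 96.9 and 93.7 in controls and at 56.3, 90.1 and 69.4 in knockouts, a log2 change of -0.41 ± 0.18 (adjusted p 0.145). Such separation, seen in 3 of the 10 genes, was found for 14.6% of all genes tested in the lower direction. It depended on scaling, since in FPKM as deposited the control and knockout ranges overlapped for all 3. These were 87.8 to 96.9 and 83 to 105 for Clpp, 86.5 to 90 and 62.7 to 108 for Afg3l2, and 172 to 185 and 155 to 203 for Hspe1. Afg3l2 was called lower when limma weighted the samples (-0.46, adjusted p 0.0157) or when knockout 2, its highest, was left out (-0.58, adjusted p 0.037). Across all other settings and animals left out, its log2 change ran from -0.58 to -0.11 (adjusted p up to 0.629).

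Clpx at 30 °C gave a log2 change of -0.08 (interval -0.46 to 0.30), Yme1l1 0.08 (-0.22 to 0.375) and Oma1 0.02 (-0.245 to 0.28). In the same knockouts the macrophage marker sum was 2318, 758 and 1215 in animals 1, 2 and 3, and the brown adipocyte sum 8986, 8700 and 6963. Knockout 1, with the highest macrophage sum, had the lowest values of Hspa9, Hspd1, Dnaja3, Lonp1, Clpp and Afg3l2 among the 3. The same animal had the highest skeletal muscle sum of the 3 (9565, against 2265 and 7356), and the controls at 30 °C had muscle sums of 15210, 5184 and 39.7. Lonp1 was highest in knockout 3, which had the lowest brown adipocyte sum. The part of this cell mixture in the results at 30 °C was not tested.

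The difference between the knockout effects at 22 °C and at 30 °C was tested as an interaction. It was called by limma for 0 of the 10 genes and for 0% of all genes tested, and in none of the alternative settings for these 10. At an unadjusted p under 0.05 it was present for 1 of the 10, Afg3l2 (0.52 on the log2 scale, unadjusted p 0.0453, adjusted p 0.372), and for 13% of all genes. For Lonp1 the effects differed by 0.31, with a 95% interval from -0.56 to 1.18, which does not show that they were equal. Since Xist and the Y-linked Ddx3y separate all samples at 22 °C from all samples at 30 °C (values below), a change of the knockout effect with temperature cannot be told apart from one with sex-linked expression.

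Ratios within a library do not depend on how libraries are scaled, and show how far the genes of a pair parted. These are descriptions without a test, and how often ratios of other gene pairs part in this way was not counted. For single genes, knockouts were all above controls for 4.85% at 22 °C and 22.2% at 30 °C. They were all below for 14.6% at 30 °C. The ratio of Lonp1 to Clpp (FPKM) was 1.2, 1.19, 1.08 and 0.677 in controls at 22 °C and 3.67, 4.31, 1.77 and 2.88 in knockouts. At 30 °C it was 1.06, 1.09 and 1.16 against 2.09, 2.21 and 3.73. Lonp1 was thus near the level of Clpp in controls and well above it in every knockout.

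The ratio of Hspa9 to its partner Dnaja3 was 3.59, 3.59, 3.74 and 4.17 in controls and 4.70, 5.37, 4.64 and 5.34 in knockouts at 22 °C. It was 2.57, 2.61 and 2.78 against 3.77, 3.63 and 4.60 at 30 °C. The genotypes did not overlap at either temperature, although the levels of Dnaja3 overlapped at both and those of Hspa9 at 30 °C.

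Hspd1 and Hspe1, which face away from each other around the stretch printed above, had a ratio of 1.17, 1.03, 1.18 and 0.629 in controls and 1.44, 1.71, 1.22 and 1.68 in knockouts at 22 °C. The lowest knockout exceeded the highest control by a small margin. At 30 °C the ratio was 0.991, 0.970 and 0.963 in controls and 0.900, 1.36 and 1.13 in knockouts, and these overlapped. Hspd1 and Hspe1 are also named in 7 annotated pseudogenes, and 1 more is named after Hspa9. Those 8 had FPKM of at most 2.61 (Hspd1-ps3), and how reads shared with them were assigned is not given in the sources used here.

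Clpx over Clpp was 0.504 ± 0.149 in controls and 0.701 ± 0.0993 in knockouts at 22 °C, and 0.447 ± 0.0572 and 0.497 ± 0.0768 at 30 °C, with overlapping ranges at both. The ratio of Yme1l1 to Oma1 was 3.27 ± 0.675 and 3.37 ± 0.705 at 22 °C and 1.68 ± 0.279 and 1.76 ± 0.316 at 30 °C. Afg3l2 over Yme1l1 was 5.27 ± 0.389 and 5.88 ± 1.09 at 22 °C, but at 30 °C 8.31 ± 1 in controls and 5.92 ± 1.09 in knockouts, whose ranges (7.5 to 9.43 and 4.71 to 6.84) did not overlap.

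**Figure D3:**
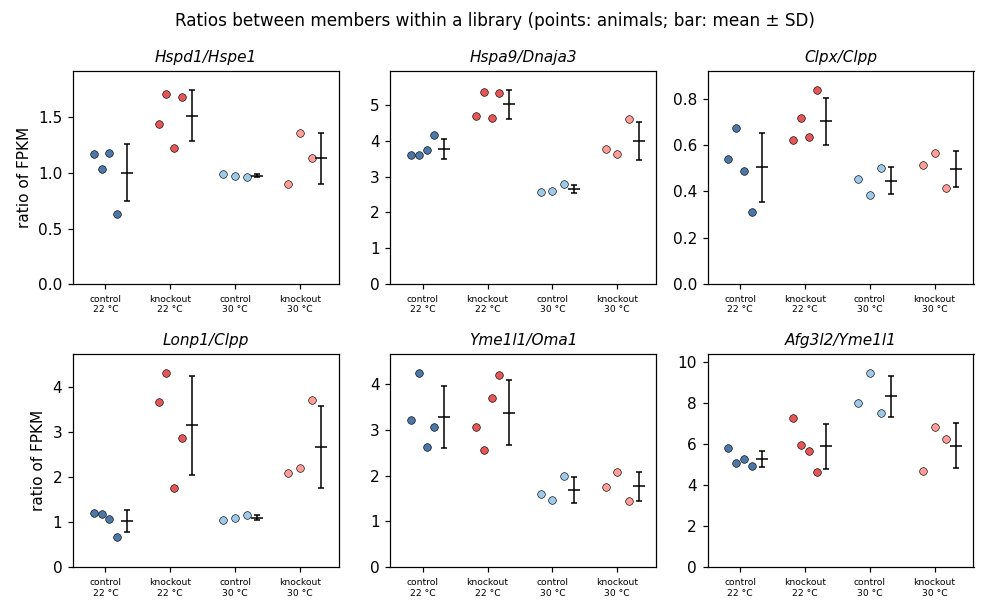
Ratio of FPKM of 2 genes within a library (vertical axes, each starting at 0) for 6 pairs of genes. Points are animals, bars are the mean and whiskers 1 SD. Lonp1 over Clpp is 1.77 or more in all 7 knockouts and at most 1.2 in all 7 controls.

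The transcription factors named for the mitochondrial unfolded protein response were compared beside the 10 genes. This list, like the others below, was chosen with earlier results of these data known. Its shares are therefore not an independent comparison with all genes. Of 5 factors, 3 rose in knockouts at 22 °C and 2 at 30 °C, where 0.91% and 8.82% of all genes rose. None was called lower, where 1.06% and 5.28% of all genes were. Under the 3 other scalings, which were tried on the lists after seeing the data, 3 to 4 rose at 22 °C and 3 to 5 at 30 °C, and 3 rose at 22 °C without the R controls. The median of all genes moved to 0.24 at 22 °C and 0.31 at 30 °C with FPKM as deposited, and to 0.115 and 0.189 with equal totals. Atf5 was at 61.5, 50.3, 121 and 74 scaled FPKM in controls and at 359, 250, 298 and 275 in knockouts at 22 °C, a log2 change of 1.998 (adjusted p 0.000765 in limma), and it was 2.02 (adjusted p 0.00114) at 30 °C. Ddit3, which encodes CHOP, rose by 2.17 (adjusted p 0.00064) and 1.22 (adjusted p 0.0185).

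Atf4 was at 48.8, 52.3, 58.2 and 59.7 in controls and at 239, 147, 106 and 111 in knockouts at 22 °C, a log2 change of 1.37 (adjusted p 0.0128). At 30 °C it was at 53.7, 101 and 75.4 against 137, 103 and 139, which did not overlap but was not called (0.74, adjusted p 0.0946). Cebpb gave -0.44 at 22 °C and 1.199 at 30 °C, and Hsf1, the heat shock factor, gave 0.23 and 0.18, none of them called. The 2 knockouts at 22 °C with the highest Lonp1, animals 1 and 2, also had the highest Atf4 and Ddit3, but animal 2 had the lowest Atf5 (250). At 30 °C animal 3 was highest for Lonp1, Ddit3 and, by a small margin over animal 1 (139 and 137), Atf4, while Atf5 was highest in animal 2 (294).

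**Figure D4:**
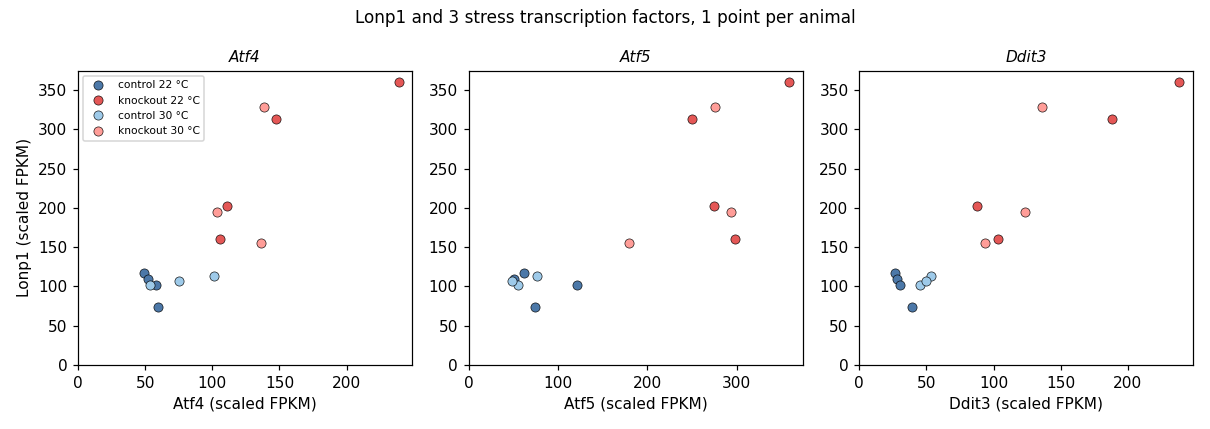
Scaled FPKM of Lonp1 (vertical axis) against Atf4, Atf5 and Ddit3 (horizontal axes), 1 point per animal and 14 animals coloured by group, all axes starting at 0. Controls cluster at Lonp1 of 74.2 to 117, and knockouts with Lonp1 of 156 to 360 lie to their right in each panel.

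Other genes of the mitochondrial chaperone and protease machinery were called in knockouts at 30 °C but not at 22 °C, a difference that the interaction test did not call for any of them. Of 9 other mitochondrial chaperones and cochaperones, 0 were called at 22 °C (median log2 change -0.12). At 30 °C all 9 were below 0, the groups of 7 did not overlap (14.6% of all genes in this direction), and 0 rose and 3 fell where 5.28% of all genes fell (median -0.41, against 0.07 over all genes): Dnajc15 by 0.68 (adjusted p 0.0091 in limma), Grpel1, the nucleotide exchange factor of Hspa9, by 0.60 (adjusted p 0.0288), and Bcs1l, which completes complex III, by 0.41 (adjusted p 0.0346). The number that fell depended on scaling: it was 0 with FPKM as deposited (median -0.13), 1 with equal totals and 4 with quantile scaling.

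Of 14 other mitochondrial proteases and peptidases, 0 were called at 22 °C (median -0.05). At 30 °C 1 rose and 2 fell (median -0.21), where 8.82% of all genes rose and 5.28% fell: Htra2, a serine protease of the intermembrane space, rose by 0.51 (adjusted p 0.0132 in limma), Immp2l, a subunit of the inner membrane peptidase, gave -0.86 (adjusted p 0.00897), and Atp23 gave -0.59 (adjusted p 0.0144). Left unscaled, the FPKM gave medians of 0.23 at 22 °C, where 4 rose, and 0.05 at 30 °C. Among 8 partners and substrates of the inner membrane proteases, 0 were called at 22 °C and 1 fell at 30 °C, the scaffold protein gene Phb (-0.47, adjusted p 0.0328). At 30 °C 0 fell in this list under each of the 3 other scalings. Dele1, which carries a mitochondrial stress signal after OMA1 cuts it, gave -0.03 and -0.07 at the 2 temperatures, and Eif2ak1, the kinase it activates, gave -0.05 and -0.14, neither called at either temperature.

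Chaperones of other compartments served as a comparison. Of 12 cytosolic heat shock chaperones, 0 were called at 22 °C (median 0.06), where 0.91% of all genes rose, and 3 rose at 30 °C (median 0.51), where 8.82% did: Hspa1b by 1.40 (adjusted p 0.0415 in limma), Hsp90aa1 by 0.95 (adjusted p 0.0249) and Dnajb1 by 0.64 (adjusted p 0.0371). Of 14 chaperones of the endoplasmic reticulum, 0 were called at 22 °C (median 0.13) and 2 rose at 30 °C (median 0.28): Sdf2l1 by 1.55 (adjusted p 0.00304) and Manf by 0.74 (adjusted p 0.0272). With FPKM as deposited 8 cytosolic and 11 endoplasmic reticulum chaperones rose at 30 °C, and 3 and 7 at 22 °C, with the median of all genes at 0.31 and 0.24 on that scale. No test compared these lists with each other, and the macrophage marker sums given above moved with genotype at the same temperature.

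The 10 genes did not move as 1 block between animals. Across the 14 libraries, Pearson's r of log2 values was 0.943 between Hspd1 and Dnaja3, 0.900 between Dnaja3 and Afg3l2, 0.881 between Hspa9 and Dnaja3, and 0.582 between Hspd1 and Hspe1. Lonp1 gave 0.622 with Hspa9, -0.003 with Yme1l1 and -0.516 with Clpp. The libraries share genotype, temperature and tissue composition, so these values describe the set of samples. The genes whose values were most like those of Hspd1 were Rgs7 (0.982), Gfm1 (0.979), Coasy (0.976), Rrn3 (0.971) and Rragc (0.971), and those most like Lonp1 were Eif3c (0.965), Tenm4 (0.959), Rhbdd1 (0.954), Rnf185 (0.948) and Yars (0.944).

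A different subset of the 10 genes differed between 22 °C and 30 °C, in comparisons where other differences run along with housing temperature. Xist was at 9.01 to 18.4 FPKM in the 6 animals at 30 °C and at most 0.0141 in the 8 at 22 °C, and the Y-linked Ddx3y was at 14.5 to 23.1 at 22 °C and at most 0.0244 at 30 °C. Temperature and sex-linked expression therefore cannot be told apart. In knockouts the marker sums at 22 °C and 30 °C did not overlap for brown adipocytes (13950 to 18240 and 6963 to 8986), macrophages (115 to 245 and 758 to 2318) or skeletal muscle (630 to 1625 and 2265 to 9565). In controls brown adipocyte and macrophage sums did not overlap either (17500 to 23300 and 12720 to 15720, 69.1 to 104 and 149 to 490), and muscle sums did. Their part in the differences with temperature was not tested. Across all genes the change with temperature also correlated with transcript GC content (Spearman's rho -0.58 in controls and -0.491 in knockouts), against 0.066 and 0.118 for the knockout effects.

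In controls, 3 of the 10 genes were higher at 22 °C than at 30 °C and 0 lower, where 18.2% of all genes were called higher, 20.6% lower and 38.8% in either direction. Yme1l1 was at 22.8, 24.1, 18.9 and 17.4 scaled FPKM at 22 °C and at 11.5, 10.3 and 12.5 at 30 °C, a log2 difference of 0.81 (adjusted p 0.000885 in limma). Hspa9 differed by 0.84 (adjusted p 0.0121) and Hspe1 by 0.52 (adjusted p 0.0205), the last not called without control 1 or 2 at 22 °C or 1 or 3 at 30 °C (0.0513 to 0.0638). In each of the 3, all animals at 22 °C were above all animals at 30 °C, as for 19.9% of all genes. Lonp1 (-0.12), Clpp (0.004) and Oma1 (-0.08) were not called, with 95% intervals of -0.73 to 0.50, -0.27 to 0.28 and -0.33 to 0.17. Without the R controls the number called higher was 7, the additions being Hspd1, Dnaja3, Clpx and Afg3l2.

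In knockouts, 7 of the 10 were higher at 22 °C and 0 lower, where 21.8% of all genes were called higher, 29.4% lower and 51.1% in either direction. The differences called were 1.15 for Hspa9 (adjusted p 0.0013 in limma), 0.84 for Hspd1, 0.81 for Dnaja3, 0.72 for Afg3l2, 0.69 for Yme1l1, 0.47 for Clpx and 0.41 for Hspe1, the last with an adjusted p of 0.0454. For each of the 7, every animal at 22 °C was above every animal at 30 °C, a pattern found for 24% of all genes. Lonp1 (0.19, interval -0.42 to 0.81), Clpp (-0.02) and Oma1 (-0.16) were not called. With 1 animal removed at a time, Hspe1 was called in 5 of 14 fits and Clpx in 9 of 14, and in 6 and 7 of 11 other settings. Hspe1 was lost without any 1 of the 4 knockouts at 22 °C, the 3 controls at 30 °C or knockouts 1 and 2 at 30 °C, and Clpx without knockout 1, 3 or 4 at 22 °C or 1 or 3 at 30 °C. Without knockout 1 at 30 °C, which also ended the call of Dnaja3 (0.60, adjusted p 0.0732), the number called higher was 4.

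Removing the relation to GC content in each library left Yme1l1, which has the lowest GC content of the 10 at 38%, at 0.34 in controls and 0.35 in knockouts (adjusted p 0.0241 and 0.00983 in limma). The same step brought Clpp, with the highest GC content at 57.8%, to 0.41 and 0.52 (adjusted p 0.0224 and 0.00326). Hspe1 was then no longer called at either genotype (adjusted p 0.17 and 0.285), and Hspa9 was called in knockouts (0.96, adjusted p 0.00414) but not in controls (0.63, adjusted p 0.0538). In knockouts Hspd1 (0.69), Dnaja3 (0.84) and Afg3l2 (0.59) also remained called, with adjusted p-values of 0.0153, 0.0139 and 0.0094, and Clpx did not (0.24, adjusted p 0.211).

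**Figure D5:**
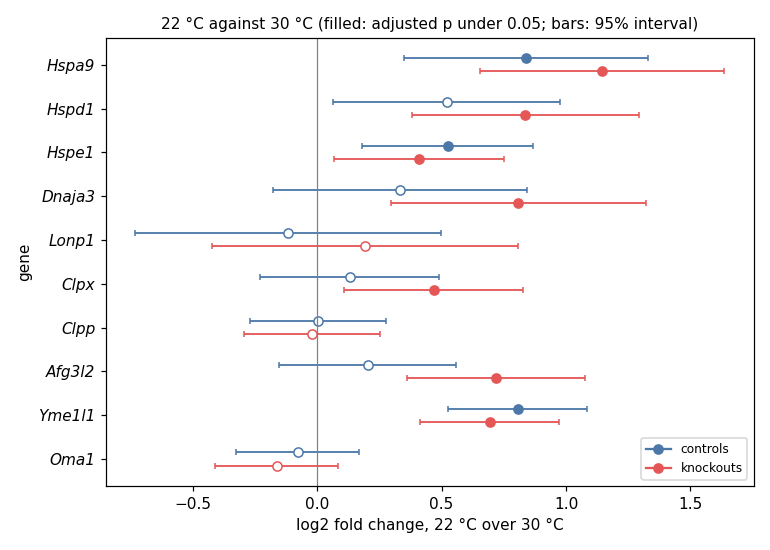
Log2 fold change of each gene, 22 °C over 30 °C (horizontal axis), within controls (4 against 3 animals) and within knockouts (4 against 3); points are limma estimates, bars are 95% intervals and filled points have an adjusted p under 0.05. Lonp1, Clpp and Oma1 are open in both genotypes, whereas Hspa9, Hspe1 and Yme1l1 are filled in both.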

How the data were processed

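Brown adipose RNA of 14 samples was measured by sequencing on an Illumina HiSeq, per the labels. The authors deposited 1 table of FPKM values per gene and sample. The genome build was mm9, per the submitters' processing notes, and the aligner, counter, strand setting and annotation are not given in the sources used here. Depth (15910000 to 21310000 fragments) was estimated from the steps between low FPKM values of genes with 1 transcript, where 90.3% to 92.2% of values came within 0.05 of a whole number of fragments.

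FPKM values were divided by median-ratio factors over 10049 nuclear genes with FPKM of at least 1 in every library (factors 0.823 to 0.947 in controls and 1.05 to 1.2 in knockouts). Genes with FPKM of at least 1 in 3 or more samples (13079) were fitted on log2(scaled FPKM + 1) with limma 3.58.1 in R 4.3.3, with mean-variance trend and 1 mean per group over all samples. Calls used a Benjamini-Hochberg adjusted p under 0.05. The script was tested on simulated data. P-values set differences between group means against the spread between samples within groups, pooled over the groups. That spread may be technical, as the labels do not state that each sample came from a separate mouse. GENCODE M21 annotation (34490 of 35275 identifiers matched) served only for symbols, length and GC content.

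The 10 genes and the other lists were chosen with earlier results of these data known. Named genes were the 10, Lrpprc, Atf4, Atf5, Ddit3, Cebpb, Dele1 and Eif2ak1, the called genes of each other list (at most 3 per knockout comparison by size), and the 5 genes most correlated with Hspd1 and with Lonp1. Hsf1 was named in addition as a list member. Alternatives were the pseudocount (0.1), the filter (none, or mean FPKM of at least 5), the scaling, the variance model, sample weights, the groups in the fit, GC content and the animals left out; scalings were tried on the other lists after seeing the data. Skeletal muscle, macrophage, brown adipocyte, endothelial and lymphocyte markers were summed; endothelial sums were 182 to 390 and lymphocyte sums 1.90 to 37.6 scaled FPKM over all animals. No protein sequence was used here.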

Additional observations from a re-analysis of the deposited data

Results flagged for a closer look

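Among the 20 groups of 4 animals formed by the 10 genes at 22 °C, 1 held an animal far from the others. Hspd1 in knockout 3 at 22 °C was at 253 scaled FPKM, while the other 3 knockouts lay between 317 and 330. Chance alone sets an animal apart by this measure in about 1 of 20 groups. The same animal was also the lowest of the 4 for Hspa9 (564), Dnaja3 (122) and Lonp1 (161).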

How the results depend on the processing

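No paired analysis was possible because the labels tie no knockout to a control. Of 570 fits of single genes under other settings, 491 kept direction and call, 18 lost and 19 gained a call and 42 changed sign, and of 700 with 1 animal left out the numbers were 636, 34, 4 and 26. For the log2 ratios between genes, the knockout difference moved by less than the pooled SD of the groups compared in all 18 and 84 repeats. That rule did not check direction, and a small difference can change sign within it. The cause was not tested for any change.

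Called higher at 22 °C (1 gene): 0 without a filter, with only the compared groups or without the R controls, 2 with quantile or equal-total scaling and 4 with FPKM as deposited, which moved the median gene by 0.24. Called lower (0): 1 with sample weights or without the R controls. Leaving out 1 animal gave 0 to 1 for each. At 30 °C, called higher (1): 0 without a filter, with only the compared groups or with GC content removed, and 3 as deposited; called lower (0): 1 with sample weights. Leaving out 1 animal gave 0 to 1 for each. By temperature, controls gave 7 in place of 3 with sample weights or without the R controls (2 to 5 without 1 animal), and knockouts 4 to 7. Lonp1 was higher in knockouts in each setting run and with every animal left out (1.11 to 1.61 at 22 °C, adjusted p 0.00343 to 0.1, and 0.695 to 1.29 at 30 °C, adjusted p 0.00616 to 0.188).

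Changes of sign fell on values that had not been called. For the knockout at 22 °C, FPKM as deposited gave 0.049 (Clpp), 0.256 (Yme1l1) and 0.197 (Oma1), equal totals 0.104 (Yme1l1) and 0.06 (Oma1), sample weights -0.038 (Hspd1), -0.005 (Clpx), -0.066 (Afg3l2) and 0.02 (Oma1), GC removal 0.035 (Yme1l1), and leaving out the R controls -0.201 (Hspd1), -0.027 (Dnaja3), -0.002 (Clpx) and -0.124 (Afg3l2). At 30 °C, as deposited gave 0.164 (Hspd1), 0.16 (Dnaja3), 0.068 (Clpp) and 0.214 (Clpx), quantile scaling 0.045 (Hspd1), -0.037 (Yme1l1) and -0.116 (Oma1), and equal totals 0.021 (Hspd1), 0.018 (Dnaja3) and 0.073 (Clpx). For the interaction, quantile scaling gave 0.032 (Clpp), 0.007 (Yme1l1) and 0.032 (Oma1), weights -0.022 (Lonp1), GC removal 0.108 (Clpp) and 0.019 (Yme1l1), and leaving out the R controls -0.064 (Hspd1) and 0.026 (Clpp). By temperature in controls, Clpp gave -0.1 as deposited, -0.016 with equal totals, -0.069 with weights and -0.046 without the R controls, Lonp1 0.221 with GC removal and 0.073 without the R controls, and Clpx -0.134 with GC removal. In knockouts Clpp gave 0.088 with quantile scaling and 0.516, then called, with GC removal, and Lonp1 -0.027 with weights.

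With 1 animal left out, signs changed within these ranges. For the knockout at 22 °C they were -0.112 to 0.038 (Yme1l1), -0.01 to 0.347 (Hspd1) and -0.007 to 0.201 (Afg3l2). At 30 °C they were -0.045 to 0.075 (Oma1), -0.242 to 0.004 (Hspd1), -0.287 to 0.074 (Dnaja3) and -0.213 to 0.008 (Clpx). The interaction of Clpp ran from -0.106 to 0.055. By temperature in controls they were -0.19 to 0.021 (Lonp1) and -0.049 to 0.05 (Clpp), and in knockouts -0.103 to 0.058 (Clpp) and -0.041 to 0.496 (Lonp1). Oma1, with 198 to 346 fragments per library, is the gene whose precision depth limits most.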
